A study of Mus musculus with 56 samples.

Results

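Voltage-gated calcium channel subunits were followed on 3 types of Affymetrix array in mouse cortical neurons after inhibition or knockdown of topoisomerases. The set holds 10 genes of the 23600 named by a single-symbol probe set on any array type: the pore-forming subunits Cacna1a, Cacna1b, Cacna1c, Cacna1d, Cacna1e, Cacna1g, Cacna1h and Cacna1i, and the auxiliary subunits Cacna2d1 and Cacna2d3. Members were chosen by name, with earlier results of these data known, and every probe set that lists a single one of these symbols was used. On the 3' arrays 9 members had 23 such probe sets (Cacna1i had none), on the earlier gene-level arrays 9 members had 10 (Cacna1d only shared an entry with another gene), and on the later gene-level arrays all 10 had 1 each. Where a gene had several, it is counted through the brightest.

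Cortical neurons of C57BL6 mice, taken at E13 to E15 of gestation, spent 7 days in culture before drug or vehicle was added for 24 or 72 h. The labels tie an exposure time to a sample only for the 24 h topotecan arrays. The 3' arrays held 300 nM topotecan and, as a separate experiment, 3 µM ICRF-193, each with its own vehicle (n = 3 in each group). The earlier gene-level arrays held topotecan at 3, 30, 150, 500 and 1000 nM (n = 1 each), at 300 nM (n = 2) and vehicle (n = 3). The later gene-level arrays compared topotecan at 1 µM with vehicle (6 arrays per group), and control, Top1 and Top2b shRNA (n = 3 each). They also held irinotecan at 10 µM (n = 3), topotecan for 24 h with and without washout (n = 1 each), and 2 vehicle arrays shared by these. Single arrays of DRB (100 µM) and of its vehicle, and of the oxidants H2O2 (100 µM) and paraquat (10 µM) with 2 vehicle arrays between them, completed the series. Topotecan and irinotecan are camptothecin derivatives that trap topoisomerase I on DNA, ICRF-193 inhibits topoisomerase II, and DRB blocks the kinases that release RNA polymerase II into elongation. The labels do not say how the shRNAs were delivered or which share of cells carried them.

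Voltage-gated calcium channels open when the membrane is depolarised and couple electrical activity to calcium entry. The pore-forming subunit sets the current type: Cacna1c and Cacna1d give L-type currents that signal to the nucleus, Cacna1a (P/Q-type), Cacna1b (N-type) and Cacna1e (R-type) trigger transmitter release, and Cacna1g, Cacna1h and Cacna1i give low-threshold T-type currents that shape firing. The alpha2delta subunits, among them Cacna2d1 and Cacna2d3, raise the number of channels at the membrane and support synapse formation, and Cacna2d1 is the target of gabapentin.

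RefSeq promoter sequences (GRCm38.p6) were found for 7 of the 10 members, with 10 annotated starts in all. The 250 bases before the start are shown for Cacna2d1 and Cacna2d3, which had the largest falls under topotecan at 1 µM, and for Cacna1i, which fell less there and had the lowest difference under DRB. Capitals mark the letters GGGCGG, or CCGCCC on the other strand, the core of the GC box. Where capitals run on, copies adjoin or share letters.
Cacna2d1, chr5:15934441-15934690, plus strand: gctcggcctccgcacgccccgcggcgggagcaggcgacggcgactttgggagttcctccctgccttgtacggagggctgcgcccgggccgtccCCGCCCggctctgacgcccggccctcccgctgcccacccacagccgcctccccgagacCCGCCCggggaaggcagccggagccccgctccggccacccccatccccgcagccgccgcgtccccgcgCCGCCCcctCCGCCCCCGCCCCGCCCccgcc
Cacna2d3, chr14:29721865-29722114, minus strand: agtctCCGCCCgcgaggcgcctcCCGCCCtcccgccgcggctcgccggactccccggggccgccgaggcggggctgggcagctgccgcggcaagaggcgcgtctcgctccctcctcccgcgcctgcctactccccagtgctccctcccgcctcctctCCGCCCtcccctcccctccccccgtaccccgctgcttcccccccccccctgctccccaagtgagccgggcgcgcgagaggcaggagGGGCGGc
Cacna1i, chr15:80286988-80287237, plus strand: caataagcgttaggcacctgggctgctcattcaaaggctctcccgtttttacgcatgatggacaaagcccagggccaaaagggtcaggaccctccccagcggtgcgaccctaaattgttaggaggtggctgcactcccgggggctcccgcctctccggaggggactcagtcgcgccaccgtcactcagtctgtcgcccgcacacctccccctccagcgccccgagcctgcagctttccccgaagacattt
The Cacna2d1 window held 6 copies and the Cacna2d3 window 4, beside 36 and 30 CG dinucleotides, whereas the Cacna1i window held none, beside 16 CG dinucleotides. At least 1 copy occurred in 5 of the 10 members' windows and in 32.7% of all 32851 windows of that length. The median over all windows was 6 CG dinucleotides. The letters TATAAA or TTTATA occurred in 1 of the members' windows, at the second start of Cacna1d, and in 12.4% of all windows. These are matches of letters and not measured binding sites.

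The arrays of a type were not all on the same scale. On the 3' arrays mean intensities were 571 to 577.3 in the ICRF-193 experiment and 682.3 to 698.3 in the topotecan experiment. On the later gene-level arrays they were 137.8 to 143.7, 177.5 to 183.3 and 201.5 to 211 in 3 sets, with shRNA replicate 1 in the second set and replicates 2 and 3 in the first. On the earlier arrays the arrays at 1000 nM and of vehicle 1 and 2 had median intensities of 76.5 to 79.8 and the other 7 of 73.3 to 75.9. Levels below are log2 intensities and are compared only within an experiment, changes are differences of mean log2 intensity with their standard error (SE), and a called change had a Benjamini-Hochberg adjusted p under 0.05 over all probe sets in limma's moderated test (2-sided). Nothing states that replicates were separate cultures, so the p-values cover no more than the spread between these arrays, whose number limits the precision. Every pan-neuronal marker measured (7, or 6 on the earlier gene-level arrays) was above the dim limit (the 40th percentile of mean levels) in every group. RNA came from whole cultures, where fewer cells of a type and less RNA per cell cannot be told apart.

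**Figure D1:**
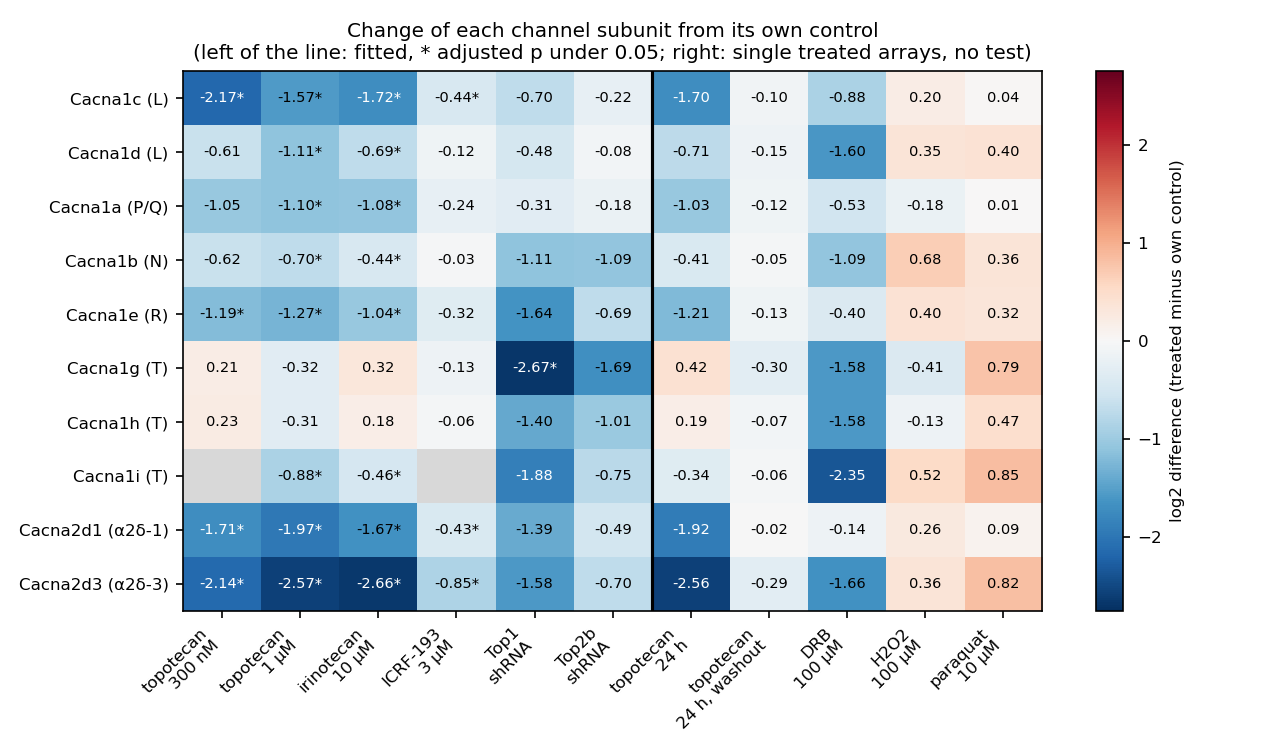
Log2 difference of each subunit (rows, with the current type or alpha2delta form in brackets) from its own control in each treatment (columns). Stars mark called changes in fitted comparisons, columns right of the line are single treated arrays with no test, and grey cells had no probe set. The Cacna2d3 row runs from -2.66 under irinotecan to 0.82 under paraquat, and the Cacna1g row is lowest under Top1 shRNA, at -2.67, and the Cacna1i row under DRB, at -2.35.

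Topotecan at 1 µM had the largest groups, with 6 arrays against 6. Of the 10 subunits 8 fell and none rose, where 12% of all 23521 probe sets were called lower and 17.2% higher. The median change over the members was -1.11, against 0.04 over all genes.

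Among the L-type subunits, Cacna1c was 8.67, 8.98 and 9.09 (lowest, median and highest) in vehicle and 7.24, 7.39 and 7.60 in topotecan. No treated array reached a vehicle array, and the level fell by 1.57 (SE 0.08, 2.96-fold, adjusted p = 1.22e-08). Cacna1d was 7.65, 8.01 and 8.09 in vehicle and 6.58, 6.87 and 7.08 in topotecan. It too fell in every array, by 1.11 (SE 0.10, adjusted p = 1.15e-06).

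Of the subunits that serve transmitter release, P/Q-type Cacna1a was 9.14, 9.28 and 9.41 in vehicle and 8.07, 8.17 and 8.27 in topotecan. It fell by 1.10 (SE 0.07, 2.15-fold, adjusted p = 3.43e-08), with the narrowest spread of the 10 members. R-type Cacna1e was 8.31, 8.82 and 8.88 in vehicle and 7.12, 7.46 and 7.78 in topotecan, and fell by 1.27 (SE 0.12). N-type Cacna1b was 8.58, 9.13 and 9.31 in vehicle and 8.10, 8.42 and 8.59 in topotecan. It fell by 0.70 (SE 0.12, adjusted p = 0.000535), although its highest treated array passed its lowest vehicle array.

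Of the T-type subunits, Cacna1i was 6.75, 7.24 and 7.59 in vehicle and 5.99, 6.28 and 6.75 in topotecan, and fell by 0.88 (SE 0.14, adjusted p = 0.000431). Cacna1g, at 6.59, 7.06 and 7.54 in vehicle and 6.32, 6.86 and 7.05 in topotecan, differed by -0.32 (SE 0.15, adjusted p = 0.129). Cacna1h differed by -0.31 (SE 0.13, adjusted p = 0.0997). Groups overlapped for both, and neither was called. The difference between these genes and Cacna1i was not tested. Without vehicle replicate 4, the lowest vehicle array for both, the calls changed: adjusted p was 0.0386 for Cacna1g and 0.0483 for Cacna1h.

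The 2 alpha2delta subunits among the members fell most of the 10 genes. Cacna2d3 was 8.28, 8.81 and 9.04 in vehicle and 5.91, 6.22 and 6.46 in topotecan, and fell by 2.57 (SE 0.12, 5.93-fold, adjusted p = 4.8e-09). Cacna2d1 was 9.63, 9.96 and 10.07 in vehicle and 7.75, 7.96 and 8.22 in topotecan, and fell by 1.97 (SE 0.10, 3.92-fold, adjusted p = 4.83e-09). Each gap between the groups was wider than either group's range.

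Markers of cell types moved in the same arrays. Of 9 astrocyte markers 6 were called lower and 1 higher, with a summed intensity of 2061 to 2364 under topotecan and 3850 to 4276 in vehicle, and S100b below the dim limit in both. Of 7 pan-neuronal markers 6 were called lower (sum 10801 to 13624 against 13309 to 16702), and of 5 inhibitory neuron markers 2 (785 to 1192 against 898 to 1468). Of 5 excitatory neuron markers 1 was called lower and 2 higher (933 to 1458 against 780 to 1515). Their part in the members' changes was not tested.

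Irinotecan, the other camptothecin derivative, was given at 10 µM, so its values are set beside those of topotecan without a test. Of the 10 members 8 fell, where 5.10% of all probe sets were called lower and 4.47% higher. The 3 treated and 2 vehicle arrays did not overlap for any member, but the share of all probe sets without overlap was not counted.

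Cacna2d3 was 6.09, 6.33 and 6.18 under irinotecan and 8.95 and 8.77 in vehicle. It fell by 2.66 (SE 0.11, 6.31-fold, adjusted p = 0.00016), beside a change of -2.57 under topotecan at 1 µM. Cacna2d1 was 8.01, 8.20 and 8.00 against 9.73 and 9.74, and fell by 1.67 (SE 0.10, adjusted p = 0.000358). Cacna1c was 7.53, 7.52 and 7.46 against 9.24 and 9.21, and fell by 1.72 (SE 0.08, adjusted p = 0.00021). These 3 genes again held the lowest places.

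Cacna1a fell by 1.08 (SE 0.09, adjusted p = 0.00105) and Cacna1e by 1.04 (SE 0.10, adjusted p = 0.002). The smaller falls were of Cacna1d by 0.69 (adjusted p = 0.0189), Cacna1i by 0.46 (adjusted p = 0.0247) and Cacna1b by 0.44 (adjusted p = 0.0328). The calls for Cacna1i and Cacna1b were lost without any 1 of the 5 arrays, with adjusted p up to 0.144 and 0.186. The call for Cacna1d was lost without irinotecan replicate 1 or 3 or vehicle replicate 1.

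Cacna1g and Cacna1h lay on the other side. Cacna1g was 7.88, 7.89 and 7.79 under irinotecan and 7.60 and 7.47 in vehicle, above vehicle in all arrays, with a difference of 0.32 (SE 0.09, adjusted p = 0.0866). It was called higher when dim probe sets were left out (adjusted p = 0.0291). Cacna1h differed by 0.18 (SE 0.09, adjusted p = 0.296). Of 9 astrocyte markers 3 were called lower under irinotecan (sum 1982 to 2134 against 2132 to 2575), and 1 of 7 pan-neuronal markers (14917 to 15187 against 15794 to 16768). Of 5 inhibitory neuron markers 3 were called lower (831 to 861 against 1080 to 1132), and of 5 excitatory ones 1 higher (2162 to 2182.3 against 1646 to 1709). Their part was not tested.

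**Figure D2:**
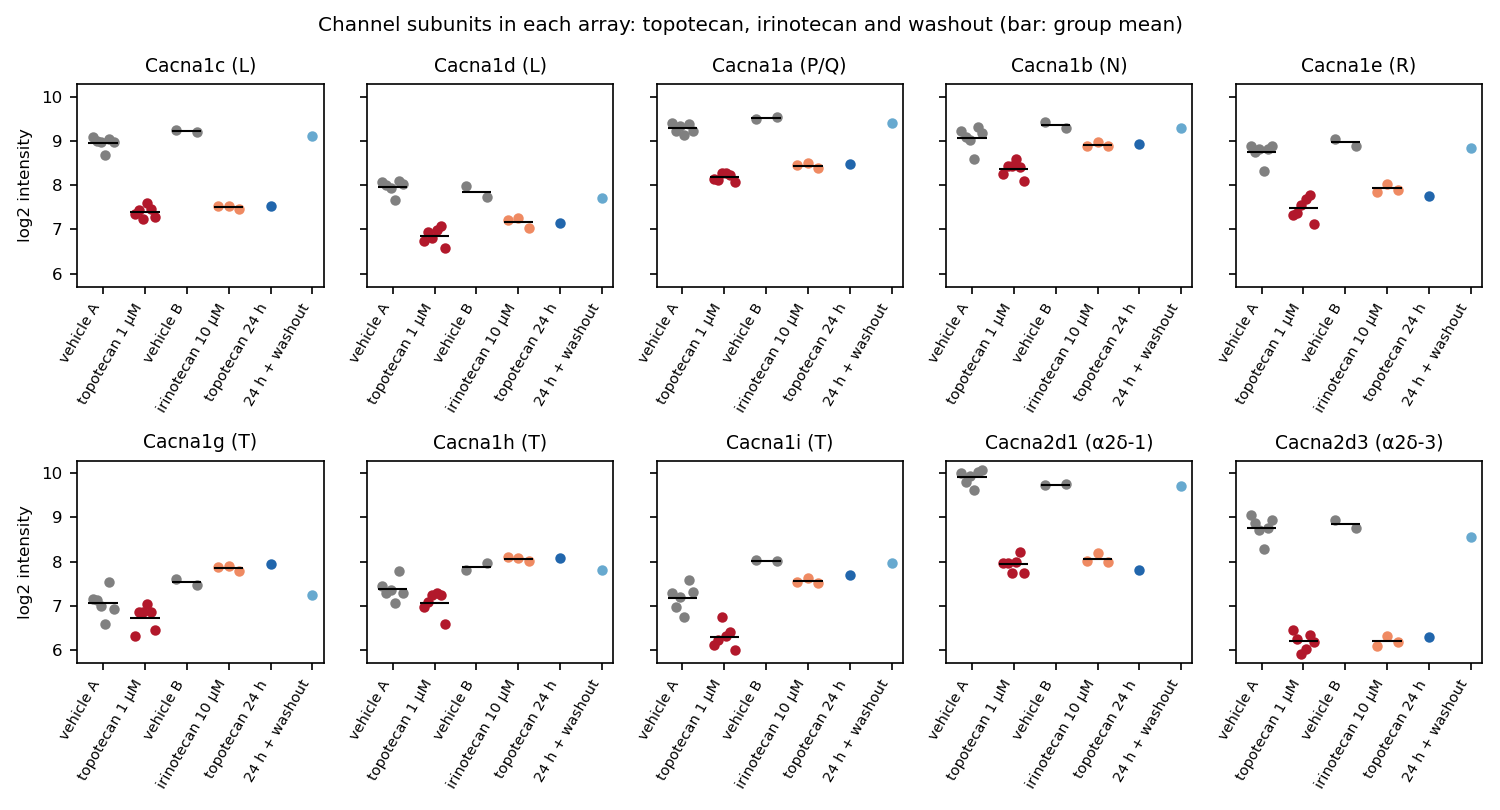
Log2 intensity of each subunit in every array given topotecan or irinotecan and in their vehicles. Points are arrays, bars are group means, vehicle A belongs to topotecan at 1 µM and vehicle B to the other groups. Cacna2d3, Cacna2d1, Cacna1c, Cacna1e and Cacna1a are low in all treated groups except washout.

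Topotecan for 24 h, with and without washout, had 1 array for each state, so no test was made. Against the shared vehicle, 5 members were past 2-fold lower after 24 h of topotecan, where 1.52% of all probe sets were past 2-fold lower and 0.319% higher. Cacna2d3 was 6.30, against 8.95 and 8.77 in vehicle, a difference of -2.56. Cacna2d1 was 7.82 (difference -1.92), Cacna1c 7.52 (-1.70), Cacna1e 7.75 (-1.21) and Cacna1a 8.48 (-1.03). Cacna1d (-0.71), Cacna1b (-0.41) and Cacna1i (-0.34) were below both vehicle arrays by less, and Cacna1g (0.42) and Cacna1h (0.19) were above both.

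After washout no member was past 2-fold, where 0.0595% of all probe sets were past 2-fold lower and 0.0723% higher. Cacna2d3 was 8.57, Cacna2d1 9.72, Cacna1c 9.12, Cacna1e 8.84 and Cacna1a 9.39. All 10 members were below the vehicle mean, with differences from -0.02 for Cacna2d1 to -0.30 for Cacna1g, with a median of -0.11 over the members and 0.00 over all genes. Only Cacna1h and Cacna1b lay within the vehicle range.

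On the 3' arrays topotecan at 300 nM lowered 4 of the 9 members measured and raised none, where 1.93% of all 34958 probe sets were called lower and 0.709% higher. Cacna1c was 7.89, 7.42 and 6.75 under topotecan and 9.14, 9.48 and 9.95 in vehicle, and fell by 2.17 (SE 0.31, 4.50-fold, adjusted p = 0.017). Cacna2d3 was 9.15, 8.87 and 8.19 against 10.43, 10.68 and 11.52, and fell by 2.14 (SE 0.33, adjusted p = 0.0225). Cacna2d1 was 10.21, 10.39 and 9.99 against 11.27, 12.12 and 12.34, and fell by 1.71 (SE 0.27, adjusted p = 0.023). Cacna1e was 10.03, 9.79 and 9.45 against 10.64, 10.94 and 11.28, and fell by 1.19 (SE 0.20, adjusted p = 0.0301). None of these 4, picked by their calls, overlapped between groups, and the share of all probe sets without overlap was not counted.

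Cacna1a was also lower in every treated array (difference -1.05, SE 0.28), but its adjusted p was 0.114 on the brightest probe set. Another of its probe sets was called, at -0.69 (adjusted p = 0.0387). Cacna1d differed by -0.61 (adjusted p = 0.223) and Cacna1b by -0.62 (adjusted p = 0.305). Cacna1g (0.21, adjusted p = 0.614) and Cacna1h (0.23, adjusted p = 0.482) were higher on average, with groups that overlapped.

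Probe sets of a gene did not always move alike. Of the 23 probe sets 6 were called lower, among them both of Cacna1c (-1.34 and -2.17). The 5 of Cacna2d1 ranged from -0.56 to -1.71 with 1 called, and the 2 of Cacna1e gave -1.19 and -0.04, the latter from a probe set below the dim limit. Without topotecan replicate 2 or vehicle replicate 2 no member of the 4 was called (adjusted p of at most 0.122), and without any of the other 4 arrays 1 to 4 were. The changes stayed about as large: without topotecan replicate 2 they were -2.20 for both Cacna1c and Cacna2d3. Of 9 astrocyte markers 4 were called lower, with sums of 20595 to 26432 against 36345 to 43589, and none of 7 pan-neuronal markers (42601 to 50303 against 48722 to 65630). Of 5 excitatory neuron markers 1 was called higher (5968 to 6572 against 4099 to 4960), and of 6 oligodendrocyte lineage markers 1 (1596 to 1664 against 1986 to 2860, a lower sum). Their part was not tested.

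ICRF-193 at 3 µM gave smaller changes on the same array type. It lowered 3 of 9 members and raised none, where 2.83% of all probe sets were called lower and 2.15% higher. Cacna2d3 was 9.47, 9.41 and 9.21 under ICRF-193 and 10.38, 10.27 and 9.98 in vehicle, and fell by 0.85 (SE 0.11, 1.80-fold, adjusted p = 0.0094). Cacna1c was 8.60, 8.59 and 8.44 against 9.06, 9.03 and 8.87, and fell by 0.44 (SE 0.07, adjusted p = 0.017). Cacna2d1 was 11.37, 11.32 and 11.28 against 11.87, 11.72 and 11.66, and fell by 0.43 (SE 0.06, adjusted p = 0.0137). The other probe set of Cacna1c differed by -0.16 and was not called (adjusted p = 0.176). Those of Cacna2d1 ranged from -0.10 to -0.43, and besides the brightest only a probe set below the dim limit was called (adjusted p = 0.0436). With the mean of its probe sets Cacna2d1 was not called (adjusted p = 0.0662).

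Cacna1e, at 10.69, 10.68 and 10.56 against 11.09, 11.00 and 10.81, differed by -0.32 (SE 0.08, adjusted p = 0.0624). With the replicate number as a block, which pairs treated and vehicle arrays here, it was called (adjusted p = 0.0333), so 4 members were lower in the replicate block fit. Cacna1a differed by -0.24 (adjusted p = 0.116) and was lower in every array. Cacna1d (-0.12), Cacna1g (-0.13), Cacna1h (-0.06) and Cacna1b (-0.03) were not called. Cacna2d3 stayed called without any 1 array, whereas Cacna1c lost its call without ICRF-193 replicate 2 or 3 or vehicle replicate 1 or 2, and Cacna2d1 without ICRF-193 replicate 2 or 3 or vehicle replicate 2. Of 9 astrocyte markers 4 were called lower (sum 23275 to 25878 against 31398 to 35126). Of 7 pan-neuronal markers 2 were called higher (54147 to 56666 against 51409 to 54496), and of 5 excitatory neuron markers 2 (7475 to 8140 against 6209 to 6808). Of 6 oligodendrocyte lineage markers 1 was called higher, with sums that overlapped. Their part was not tested.

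The difference of the effects of topotecan and ICRF-193 was tested across the 4 groups, whose experiments were normalized apart. It was called for Cacna1c alone, where 1.04% of all probe sets were called lower and 0.395% higher. The difference of the changes, topotecan minus ICRF-193, was -1.73 for Cacna1c (SE 0.35, adjusted p = 0.0356), and -1.18 on its other probe set (adjusted p = 0.0103). For Cacna2d1 it was -1.28 (SE 0.30, adjusted p = 0.0656), for Cacna2d3 -1.29 (SE 0.39, adjusted p = 0.157) and for Cacna1e -0.87 (SE 0.24, adjusted p = 0.112). The call for Cacna1c was lost without any 1 of the 6 ICRF-193 experiment arrays or replicate 2 of topotecan or its vehicle.

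The dose series followed 9 members over 10 arrays. The slope over dose steps, ranked from vehicle up, was called for 2 of them, both falling, where 0.872% of all 21218 probe sets were called lower and 0.500% higher. Cacna2d3 was 9.80, 9.73 and 10.11 in vehicle, 10.07 at 3 nM, 9.99 at 30 nM, 9.51 at 150 nM, 9.23 and 9.33 at 300 nM, 9.07 at 500 nM and 7.74 at 1000 nM. From 150 nM on each array lay below all vehicle arrays, and the slope was -0.27 per dose step (SE 0.05, adjusted p = 0.0446). Cacna1c was 9.59, 9.66 and 9.66 in vehicle, 9.67, 9.65, 9.45, 9.46, 9.40 and 9.12 from 3 to 500 nM and 8.73 at 1000 nM. Its slope was -0.12 (SE 0.02, adjusted p = 0.041). With a slope over log10 of the dose in place of its rank, neither Cacna2d3 nor Cacna1c was called (adjusted p = 0.148 each).

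Cacna2d1 was also lower at the higher doses, with 10.61, 10.69 and 10.66 in vehicle, 10.52 at 150 nM, 10.35 and 10.27 at 300 nM, 9.89 at 500 nM and 9.08 at 1000 nM. Its slope of -0.19 (SE 0.04, adjusted p = 0.061) was not called. Cacna1a, from 10.13, 10.19 and 10.35 in vehicle to 9.92 at 500 nM and 9.35 at 1000 nM, had a slope of -0.11 (adjusted p = 0.0559). Cacna1e, at 9.64, 9.68 and 9.54 in vehicle, stayed at 9.45 or above up to 500 nM and was 9.08 at 1000 nM. Cacna1b and Cacna1i had slopes of -0.01 each.

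Cacna1h went the other way, with 8.35, 8.29 and 8.06 in vehicle, 8.26 at 3 and at 30 nM, 8.56 at 150 nM, 8.74 and 8.66 at 300 nM, 8.64 at 500 nM and 8.63 at 1000 nM. All 5 arrays from 150 nM on lay above the vehicle arrays, and the slope was 0.09 (SE 0.02, adjusted p = 0.0585). Cacna1g had a slope of 0.03 (adjusted p = 0.573).

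The arrays at 1000 nM and of vehicle 1 and 2 differed from the other 7 in median intensity. Of probe sets above the dim limit, 0% were over 2-fold apart between vehicle 1 and 2. Against vehicle 3 the share was 7.30% for vehicle 1 and 7.69% for vehicle 2. Within the 7, Cacna2d3 kept its call (slope -0.23, adjusted p = 0.00895), Cacna1a (-0.09, adjusted p = 0.0365) and Cacna1h (0.14, adjusted p = 0.0217) gained one, and Cacna1c lost its own (-0.10, adjusted p = 0.0766). Within the other 3, the 1000 nM array differed from the mean of vehicle 1 and 2 by -2.03 for Cacna2d3, -1.57 for Cacna2d1, -0.89 for Cacna1c, -0.82 for Cacna1a and 0.31 for Cacna1h. Leaving out any 1 of the 10 arrays took the adjusted p of Cacna2d3 to 0.0506 to 0.0933, and each but the first 300 nM array took that of Cacna1c past the threshold (up to 0.123). Astrocyte markers summed to 4510 to 16841 in vehicle, 3353 to 5451 from 3 to 500 nM and 8743 at 1000 nM, with none of 9 slopes called, S100b dim throughout and Aqp4 dim at 500 nM. Of 5 excitatory neuron markers 2 had slopes called higher, with sums of 3030 to 3268 in vehicle, 4204 to 4329 from 150 to 500 nM and 3822 at 1000 nM. Proliferating-cell markers summed to 319 to 3251 in vehicle, 263 to 327 from 3 to 500 nM and 1225 at 1000 nM. Oligodendrocyte lineage markers summed to 392 to 1691, 356 to 519 and 1241 in the same order, with no slope of either list called. Bub1 and Mki67 were dim from 3 to 500 nM, and Mag and Mog throughout. The markers' part was not tested. At 300 nM the 2 arrays averaged -0.60 for Cacna2d3, beside the -2.14 on the 3' arrays, where array type and normalization differed.

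**Figure D3:**
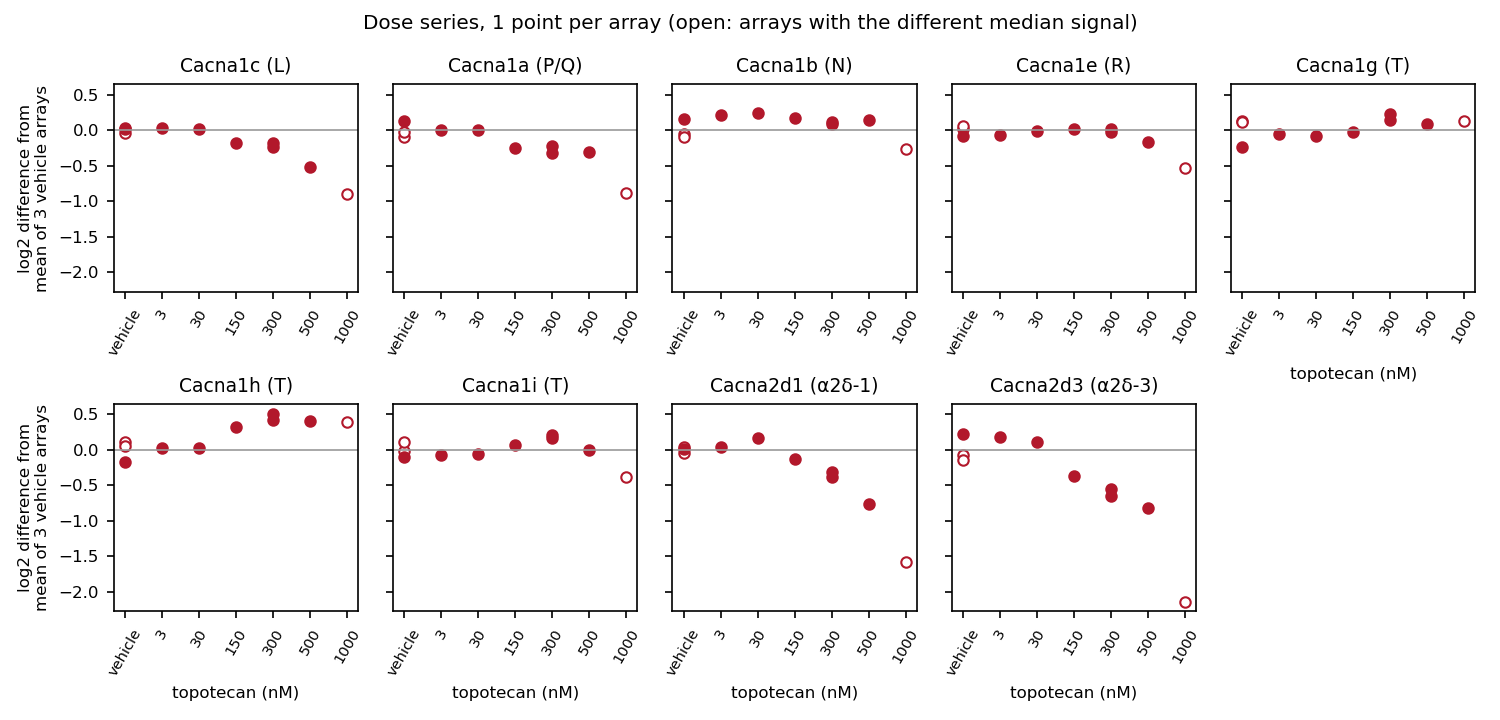
Log2 difference from the mean of the 3 vehicle arrays (vertical axis) at each topotecan dose (horizontal axis, in nM, evenly spaced by rank) for the 9 members measured. Each point is an array, and open points are the 3 arrays whose median intensity stood apart. Cacna2d3, Cacna2d1, Cacna1c and Cacna1a lie below all vehicle arrays from 150 nM on, and Cacna1h lies above vehicle from 150 nM on.

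Knockdown gave another order of the subunits. The targeted genes were checked first. Top1, the main topoisomerase of transcribed DNA, was 8.98, 8.46 and 8.55 with control shRNA and 7.62, 8.39 and 8.29 with Top1 shRNA, a difference of -0.57 (SE 0.28, adjusted p = 0.41). Top2b, the topoisomerase II of neurons, was 9.30, 8.39 and 8.17 with control shRNA and 8.62, 6.87 and 6.80 with Top2b shRNA, a difference of -1.19 (SE 0.49, adjusted p = 0.463). Each target was below its same-numbered control array in 3 of 3 pairs, but neither was called.

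With Top1 shRNA 1 of the 10 members was called lower and none higher, where 0.961% of all probe sets were called lower and 1.55% higher. That member was T-type Cacna1g, at 6.00, 5.41 and 5.16 with Top1 shRNA and 9.02, 7.81 and 7.75 with control shRNA. It fell by 2.67 (SE 0.37, 6.36-fold, adjusted p = 0.0128). Without control or Top1 shRNA replicate 2 or 3, that call was lost (adjusted p up to 0.0767) and 0% of all probe sets were called. Cacna1i was 6.70, 5.16 and 6.40 against 8.19, 7.89 and 7.82 (difference -1.88, adjusted p = 0.0539). Cacna1e was 7.94, 6.86 and 7.78 against 9.71, 8.80 and 9.00 (difference -1.64, adjusted p = 0.0505). No Top1 shRNA array reached a control array for 8 of the 10 members, but the share of all probe sets without overlap was not counted here either. An unadjusted p under 0.05 was found for 8 members and for 3572 of all 23521 probe sets.

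The remaining members spread widely between replicates. Cacna2d3 was 8.40, 5.96 and 7.54 against 8.86, 8.92 and 8.85 (difference -1.58, adjusted p = 0.142), and Cacna2d1 was 8.79, 7.32 and 8.82 against 10.20, 9.42 and 9.46 (difference -1.39, adjusted p = 0.171). Cacna1h (-1.40), Cacna1b (-1.11), Cacna1c (-0.70), Cacna1d (-0.48) and Cacna1a (-0.31) were not called. In a fit with the replicate number as a block, where number 1 also marks another array set, 6 members and 12.5% of all probe sets were called. These were Cacna1g (adjusted p = 0.00104), Cacna1e (0.0117), Cacna1i (0.0196), Cacna1h (0.0281), Cacna1b (0.0362) and Cacna2d3 (0.0469), by the same adjusted p, and all were lower. Replicate 2 was the lowest Top1 shRNA array for 9 of the 10 members.

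With Top2b shRNA no member was called, where 0% of all probe sets were called lower and 0% higher, while 3 members and 2230 of 23521 probe sets had an unadjusted p under 0.05 in limma. Cacna1g was again lowest in change, at 6.58, 6.43 and 6.50, below all control arrays (difference -1.69, SE 0.37, adjusted p = 0.105). With the replicate block, where number 1 also marks another array set, Cacna1g was called (adjusted p = 0.00857). Cacna1b was 7.90, 7.94 and 8.16 against 9.05, 9.17 and 9.05 (difference -1.09, adjusted p = 0.241), a gap wider than the spread of either group. Cacna1h differed by -1.01 (adjusted p = 0.502), and Cacna1a by -0.18, Cacna1c by -0.22 and Cacna1d by -0.08.

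Replicate 1 of all shRNA groups came from another array set than replicates 2 and 3. Within replicates 2 and 3 alone, a split chosen after seeing the data and with 2 arrays a group, 7 members were called lower with Top1 shRNA, where 24.6% of all probe sets were called. They were Cacna1g (-2.49, adjusted p = 0.000587), Cacna2d3 (-2.14), Cacna1i (-2.08), Cacna1h (-1.87), Cacna1e (-1.58), Cacna1b (-1.51) and Cacna1c (-0.81). With Top2b shRNA 3 were called, where 9.95% of all probe sets were: Cacna1g (-1.32, adjusted p = 0.00491), Cacna1b (-1.06) and Cacna1h (-0.89).

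Top1 and Top2b shRNA were also compared directly. Over all replicates no member was called, where 0% of probe sets were called lower and 0% higher, while 3 members and 700 probe sets had an unadjusted p under 0.05 in limma. All 10 members were lower with Top1 than with Top2b shRNA, with differences of -1.13 for Cacna1i, -0.98 for Cacna1g and -0.95 for Cacna1e, and the smallest of -0.02 for Cacna1b. Within replicates 2 and 3, 5 members were called lower with Top1 shRNA, where 4.12% of all probe sets were called: Cacna1i (-1.78, adjusted p = 0.0412), Cacna1e (-1.35, adjusted p = 0.0481), Cacna1g (-1.18, adjusted p = 0.0209), Cacna1h (-0.97, adjusted p = 0.0333) and Cacna1c (-0.80, adjusted p = 0.0411).

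Neuronal and other markers differed in the same arrays. Of 5 excitatory neuron markers 2 were called lower with Top1 shRNA, with sums of 362 to 680 against 1686 to 1768 in control shRNA and 521 to 1109 with Top2b shRNA. Pan-neuronal sums were 8099 to 11381, against 15623 to 16061 and 9437 to 13493, with none of 7 called. Of 5 fibroblast markers 1 was called higher with Top1 shRNA (sums 1312 to 2717 against 465 to 913). Proliferating-cell markers summed to 483 to 1144 with Top1 shRNA, 267 to 1298 with Top2b shRNA and 216 to 311 in control, with none of 4 called. Their part in the members' changes was not tested.

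DRB was measured with 1 array against 1, so its differences have no replicate check and no test. Of the 10 members 6 were past 2-fold lower and none higher, where 11.3% of all probe sets were past 2-fold lower and 10.9% higher. T-type Cacna1i was 5.96 with DRB and 8.30 in vehicle, and Cacna1g was 6.55 against 8.13 and Cacna1h 6.76 against 8.34. L-type Cacna1d was 6.85 against 8.46, Cacna2d3 7.75 against 9.41 and Cacna1b 8.64 against 9.73. Cacna1c (8.91 against 9.78), Cacna1a (9.32 against 9.85) and Cacna1e (9.01 against 9.41) were lower by less, and Cacna2d1 was 10.21 against 10.35. All 10 members lay below vehicle, with a T-type subunit lowest in difference and Cacna2d1 nearest to vehicle. The summed astrocyte markers were 1241 with DRB and 4591 in vehicle, and the pan-neuronal ones 20819 and 20342. Excitatory neuron markers summed to 1516 with DRB and 2307 in vehicle, and proliferating-cell markers to 243 and 615. Their part was not tested.

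The 2 vehicle arrays of the oxidants stood far apart, with 16.6% of probe sets above the dim limit over 2-fold apart and excitatory neuron markers summing to 815 and 2144. Vehicle replicate 1 was the lower for all 10 members, as with Cacna1i at 6.04 and 8.04 and Cacna2d3 at 7.50 and 9.32. With H2O2 no member was past 2-fold from the vehicle mean, where 1.37% of all probe sets were past 2-fold lower and 1.12% higher, and all 10 lay between the vehicle arrays. With paraquat none was past 2-fold, where 2.70% were lower and 2.27% higher, and 9 lay between the vehicle arrays, with Cacna1g at 7.89 above both (6.59 and 7.62). Against vehicle replicate 1 alone, 4 members were past 2-fold higher with H2O2 and 6 with paraquat, and against replicate 2 alone none was. The share of all probe sets past 2-fold also changed with the vehicle array left out, and its range is given at the end. No direction is therefore given for the oxidants.

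**Figure D4:**
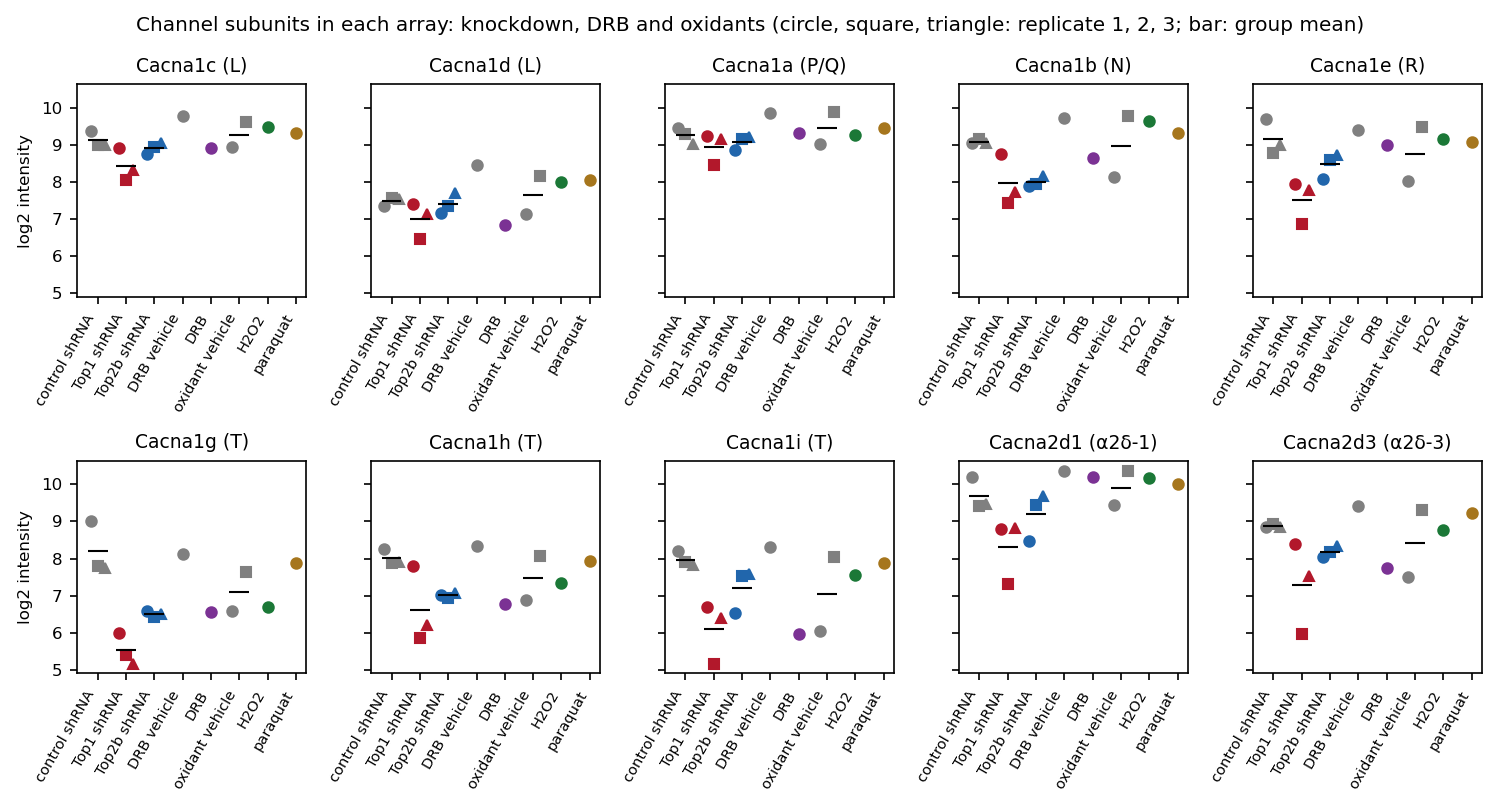
Log2 intensity of each subunit in every shRNA, DRB and oxidant array. Circles, squares and triangles are replicates 1, 2 and 3, and bars are means of groups with several arrays. The Cacna1g panel shows all Top1 and Top2b shRNA arrays below all control arrays, and the oxidant vehicle points lie far apart in most panels.

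The 10 genes span lengths from 62.1 kb (Cacna1h) to 817.8 kb (Cacna2d3) in the RefSeq annotation. Cacna1g is 66.0 kb, Cacna1i 111.1 kb, Cacna1b 159.3 kb, Cacna1a 301.6 kb, Cacna2d1 440.2 kb, Cacna1d 451.2 kb, Cacna1e 494.0 kb and Cacna1c 610.1 kb. Across the members the change under topotecan at 1 µM had a Pearson r of -0.88 with log10 of the length (Spearman rho -0.92, 10 genes), and under irinotecan -0.90. It was -0.91 under topotecan at 300 nM and -0.74 under ICRF-193 (9 genes each). With Top1 shRNA r was 0.49 and with Top2b shRNA 0.72. These are descriptions over few genes measured in the same arrays, each with its own probe set.

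Within 3 broad length classes the members differed among themselves. Genes were not matched by length within a class and dim genes were kept, so the shares below are not length-matched comparisons. Of 338 genes over 400 kb, 88.2% were called lower under topotecan at 1 µM, with a median change of -1.13. Only 3.25% of them had a lower change than Cacna2d3, 15.7% lower than Cacna2d1 and 29.3% lower than Cacna1c, whereas Cacna1e and Cacna1d, with 43.2% and 50.9% below them, lay near the median. Of 2003 genes of 100 to 400 kb, 47.0% were called lower and 4.14% had a lower change than Cacna1a. Of 19798 genes up to 100 kb, 7.42% were called lower, and 5.65% and 6.03% had a lower change than Cacna1g and Cacna1h. With Top1 shRNA 0.02% of these short genes had a lower change than Cacna1g.

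**Figure D5:**
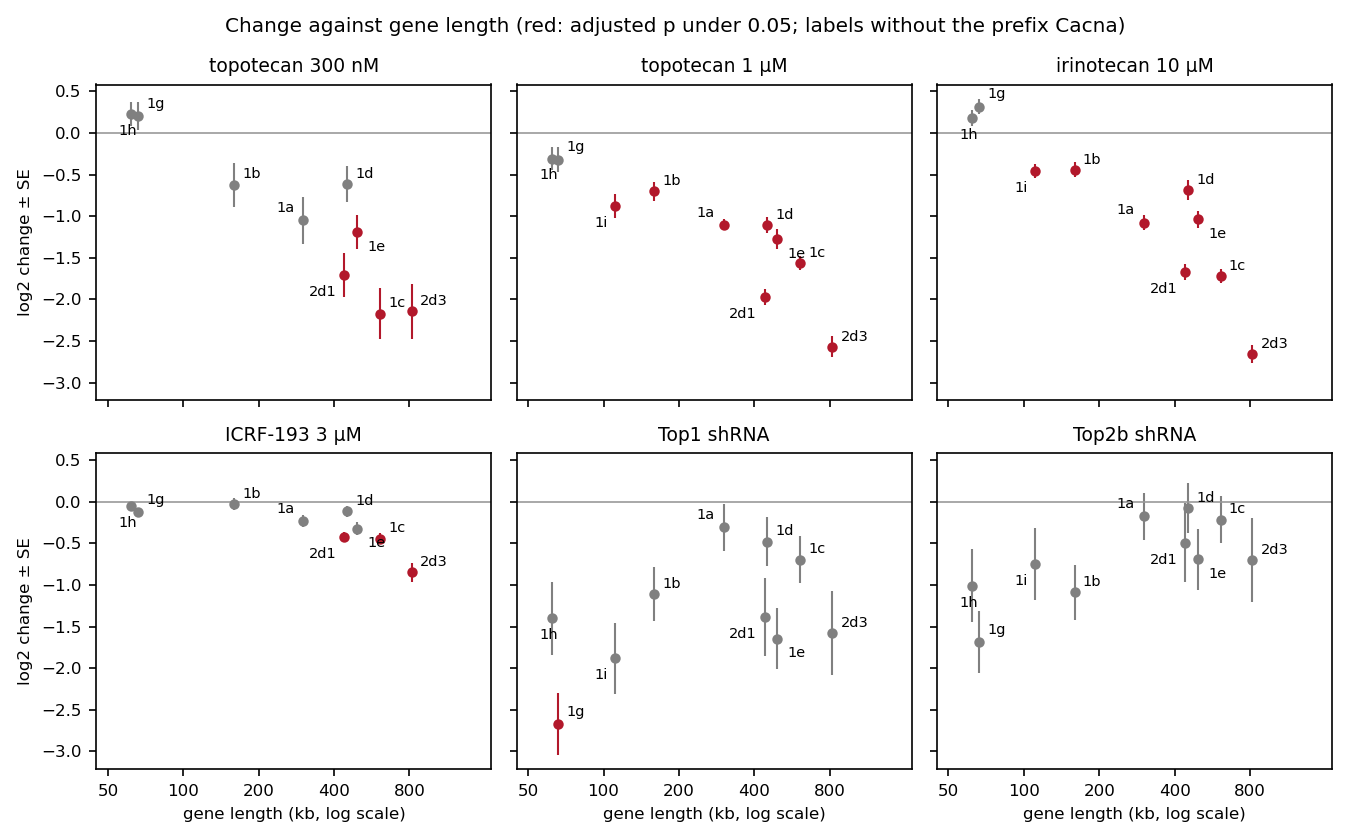
Change of each member (log2, with its SE as bars) against its gene length (kb, log scale) in the 6 fitted comparisons of groups. Red points were called and grey ones were not. The longest gene, Cacna2d3, has the lowest value under topotecan at 1 µM, irinotecan and ICRF-193, and Cacna1g, among the shortest, has the lowest value with either shRNA.

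The other genes of calcium signalling were counted from lists. Of 15 remaining channel subunits measured, topotecan at 1 µM lowered 4 and raised 1, irinotecan lowered 3, ICRF-193 1 and topotecan at 300 nM none. The beta subunits, which carry the pore to the membrane, were among them: Cacnb2 fell by 0.65 (adjusted p = 0.000301) and Cacnb4 by 0.60 (adjusted p = 0.000911) under topotecan at 1 µM, and Cacnb2 by 0.54 under irinotecan and 0.32 under ICRF-193. Cacng2 and Cacng3, which traffic AMPA receptors, each fell by 0.49 under topotecan at 1 µM. The median of this list was -0.15 under topotecan at 1 µM, beside -1.11 for the 10 members. Members and lists were chosen with earlier results of these data known, so these medians are no independent comparison. With Top1 shRNA 1 of 15 fell, Cacng2 by 1.65 (adjusted p = 0.0362).

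Of 12 channel partners and regulators measured on the later arrays, 7 fell under topotecan at 1 µM and 5 under irinotecan, with none called higher. Rims1 and Rims2, which hold calcium channels at release sites, fell by 1.56 and 0.86 under topotecan, and by 1.40 and 0.71 under irinotecan. Nalcn, a sodium leak channel, fell by 0.97 and 1.07. Rims1 also fell by 1.47 at 300 nM and 0.31 under ICRF-193, where Rims2 fell by 0.32 and Cabp7, a calcium-binding protein, rose by 0.60 (adjusted p = 0.00608).

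Of 19 genes of calcium stores, pumps and exchangers, 9 fell and 1 rose under topotecan at 1 µM, and 8 fell under irinotecan. The ryanodine receptor Ryr2, which releases stored calcium, fell by 2.09 and 2.00 there, by 2.02 at 300 nM and by 0.82 under ICRF-193. Ryr3 fell by 1.46, 1.24, 1.71 and 0.49 in the same order. Slc8a1, a sodium-calcium exchanger, fell by 1.41 under topotecan at 1 µM (adjusted p = 1.84e-07) and by 0.85 under irinotecan, but rose by 0.87 under ICRF-193 (adjusted p = 0.00394). That pair of opposite calls comes from different array types, and the difference itself was not tested.

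Of 14 calcium-dependent kinases and phosphatases on the later arrays, 11 fell under topotecan at 1 µM and 9 under irinotecan, with none called higher, and on the 3' arrays 4 of 15 fell at 300 nM and 6 under ICRF-193. Prkcb fell by 1.84 and 1.61 under the first 2, Camk1d by 1.17 and 1.26, and Ppp3ca, the catalytic subunit of calcineurin, by 1.32 and 1.26. Prkca fell by 1.26, 1.20, 1.30 and 0.34 under topotecan at 1 µM, irinotecan, topotecan at 300 nM and ICRF-193. With Top2b shRNA no gene of these 4 lists was called, where 0% of all probe sets were called lower and 0% higher.

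Over the 34 later gene-level arrays, each set against its own controls, the gene most like each member was found by Pearson r among 13512 genes above the dim limit. These r share arrays, controls and treatments and are descriptions. The control shRNA mean mixed array sets and the oxidant vehicle mean joined 2 unlike arrays, so offsets between those arrays remain in the values. Cacna1c was most like Nlgn1 (0.98), Cacna2d1 most like Ptprd (0.98), Cacna2d3 most like Grid1 (0.98) and Cacna1e most like Ryr3 (0.98). Cacna1a was nearest to Ipw (0.97), Cacna1d to Mir300 (0.96), Cacna1b to Dock9 (0.96), Cacna1i to Gpr26 (0.97), Cacna1h to Fsd1 (0.97) and Cacna1g to Chrna4 (0.94). Among the members, Cacna1c and Cacna2d3 were most alike (0.97), followed by Cacna1c and Cacna1a (also 0.97), while Cacna1g was like Cacna1h (0.90) and least like Cacna1a (0.01).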

How the data were processed

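Total RNA from the cultures was hybridised to 3 types of Affymetrix array. Per the submitters' processing notes, the authors summarised probe sets with RMA in Affymetrix Expression Console (versions not given in the sources used here) and deposited linear intensity values, 1 per probe set. Log2 was taken here and nothing was renormalized. Titles set the groups, although some descriptions contradict them. Probe sets were named through the platform annotation, and those with 1 symbol were kept: 34958 of 45101 on the 3' arrays (932 had several and 9211 none), 21218 of 35556 on the earlier (1881 and 12457) and 23521 of 41345 on the later gene-level arrays (1814 and 16010). The annotation can be old.

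Comparisons were fitted over all kept probe sets with limma 3.58.1 (lmFit and eBayes) in R 4.3.3, and adjusted by Benjamini-Hochberg, with 0.05 as the threshold. Single arrays were described past 2-fold. The scripts were tested on simulated data. All 10 members are named, and pathway genes are named by the size of called changes. The members and lists were chosen with earlier results of these data known. Deviations of same-numbered arrays from their group means went together, with every r over 0.1, for ICRF-193 (0.32, 0.18 and 0.29) and Top2b shRNA (0.47, 0.40 and 0.36). For Top2b shRNA number 1 also marks another array set, so these r cannot show that samples were paired. Alternatives covered dim probe sets, the choice among probe sets, normalization, an intensity trend, the replicate block, the dose scale, array sets and each array in turn.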

Additional observations from a re-analysis of the deposited data

Results flagged for a closer look

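Vehicle replicate 4 of the topotecan 1 µM experiment lay far below the other 5 vehicle arrays for 3 members, by a gap test applied to 20 groups of 6 arrays, of which chance marks about 1 in 20. Its log2 intensity was 8.31 for Cacna1e, 7.65 for Cacna1d and 8.67 for Cacna1c. The falls of these 3 genes were called with or without it.

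Topotecan at 300 nM lowered Cacna1c by more than ICRF-193 did, by a test of the difference itself in limma. The difference of the log2 changes was -1.18 on the dimmer probe set and -1.73 on the brightest. The 2 experiments were normalized apart. On the brightest probe set the call was lost in 8 of 12 fits without 1 array. It was also lost with the replicate block in limma (adjusted p = 0.186).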

How the results depend on the processing

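The 8 members called lower under topotecan at 1 µM were called in every alternative run, each single array left out included. Of 1311 recomputed values of single members, 1174 kept their side of the threshold, 77 lost and 60 gained a call, and 0 reversed. Without dim probe sets, the share of all probe sets called went from 2.64% to 4.31% for topotecan at 300 nM, from 4.98% to 13.9% for ICRF-193, from 9.57% to 26.6% for irinotecan (1 member higher, Cacna1g), from 2.51% to 10.4% for Top1 shRNA (4 members lower), from 0% to 2.66% for Top2b shRNA (1 lower), from 1.44% to 2.92% for topotecan minus ICRF-193 and from 1.37% to 3.49% for the dose slope (4 lower, 1 higher). With an intensity trend in the spread it was 8.64% for ICRF-193, 18.4% for irinotecan (1 higher), 4.78% for Top1 shRNA (3 lower) and 1.22% for Top2b shRNA (1 lower), and the dose slope had 4 lower and 1 higher. New quantile normalization gave 5.77% and 3 lower for Top1 shRNA, 1.45% and 1 lower for Top2b shRNA, and 1 higher for the dose slope. The brightest probe set or the mean per gene gave 2 lower each for Top1 shRNA. A slope over log10 of the dose called 0.5% and 0 members.

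With the replicate block, 12.5% and 6 members were called lower for Top1 shRNA, 4.9% and 1 for Top2b shRNA, 2.91% and 5 for irinotecan, 0.00286% and 0 for topotecan at 300 nM, and 0.186% and 0 for topotecan minus ICRF-193. Beside the calls of Cacna1e under ICRF-193 and of Cacna1g with Top2b shRNA, the block fits of those 2 comparisons changed no other member's call. For Top1 shRNA r of deviations was 0.33, 0.07 and 0.30, and number 1 marks another array set there and for Top2b shRNA. For topotecan and irinotecan r was mostly below 0, and the arrays share only a number.

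Alternatives added after seeing the data were shRNA replicates 2 and 3 alone (Top1 24.6%, 7 members; Top2b 9.95%, 3; Top1 minus Top2b 4.12%, 5) and the 7 dose arrays of like median (2.45%, 1 higher).

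Leaving out 1 array gave ranges of 0 to 4 members and 0.452% to 2.34% for topotecan at 300 nM, 1 to 5 and 1.33% to 6.10% for ICRF-193, 5 to 6 and 2.97% to 5.86% for irinotecan, 0 to 6 and 0% to 5.26% for Top1 shRNA, 0 to 3 and 0.435% to 3.19% for topotecan minus ICRF-193, and 0 to 1 and 0.287% to 1.45% for the dose slope. It gave 0 to 4 members higher and 1.80% to 11.3% for H2O2, 0 to 6 and 1.72% to 16.9% for paraquat, and 0.157% to 0.323% for washout. The call of Cacna1g with Top1 shRNA was lost without control or Top1 replicate 2 or 3 (adjusted p up to 0.0767 in limma). The cause of these shifts was not tested beyond the fewer arrays or probe sets in each fit.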
